A study of Homo sapiens with 10 samples.

Results

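U2OS cells, a human osteosarcoma line, were sequenced after 50 min of arsenite and without treatment, and the 3 Ars libraries are described here against the single untreated library. Members were chosen by their labels, 3 libraries titled Arsenite and 1 titled noTreat, which make 4 of the 10 libraries of the series. All cells were of the same line and were maintained in low glucose DMEM with fetal bovine serum, and the labels give no arsenite dose. The other 6 libraries received the same arsenite after 18 h in EBSS, a balanced salt solution that lacks AAs, used without serum. VBL (vinblastine, which disrupts microtubules) was given together with EBSS, and 3 of the 6 libraries also had added Gln. All 6 enter here only as values set beside those of Ars cells. Nothing in the labels says whether the libraries of a group came from separate cultures.

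The untreated condition had 1 library and no replicate, so no gene is given a test of its own. A permutation of 3 against 1 libraries cannot give a p under 0.25. What the treatment did and what sets this one untreated library apart for any other reason cannot be told apart. Each value below is a normalized count, and each difference is the mean log2(normalized count + 1) of the 3 Ars libraries minus that of the untreated library, given with the SD over the 3 Ars libraries. Values after ± are SDs over the 3 libraries of a group. A gene was counted as higher or lower when this difference reached 2-fold, 1 on the log2 scale, and all 3 Ars libraries lay on that side of the untreated library. Of 60671 genes listed, the 6132 with a mean of at least 100 over the 4 libraries were kept.

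Arsenite is a trivalent arsenic compound that binds thiol groups of proteins and raises oxidative stress. Cells are known to answer it with phosphorylation of eIF2α, a stop in translation and assembly of stress granules (SGs), cytoplasmic condensates of stalled mRNAs and RNA-binding proteins. In the nucleus, unfolded and oxidized proteins release HSF1, the factor of heat shock genes, metal ions activate MTF1, the factor of metallothionein genes, loss of KEAP1 control activates NRF2, the factor of antioxidant genes, and MAP kinases drive the immediate early genes. The results below are ordered by these branches, then by the genes that were lower.

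To show the sequences that these factors are known to read, the 250 bases before the start site are printed for 8 genes, from RefSeq on GRCh38.p14. The first 5 are heat shock genes, at chr1:161524290-161524539 on the plus strand for HSPA6, chr6:31815293-31815542 on the plus strand for HSPA1A, chr6:31827488-31827737 on the plus strand for HSPA1B, chr7:76302423-76302672 on the plus strand for HSPB1 and chr11:123062137-123062386 on the minus strand for HSPA8. Capitals mark paired heat shock units, the letters GAANNTTC or TTCNNGAA on either strand, which overlap where 3 units follow each other.
HSPA6: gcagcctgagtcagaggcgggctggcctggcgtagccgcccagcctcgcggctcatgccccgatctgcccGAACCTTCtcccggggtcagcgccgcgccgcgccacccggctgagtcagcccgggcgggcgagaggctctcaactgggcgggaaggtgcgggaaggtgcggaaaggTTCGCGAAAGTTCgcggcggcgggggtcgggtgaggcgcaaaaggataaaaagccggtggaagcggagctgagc
HSPA1A: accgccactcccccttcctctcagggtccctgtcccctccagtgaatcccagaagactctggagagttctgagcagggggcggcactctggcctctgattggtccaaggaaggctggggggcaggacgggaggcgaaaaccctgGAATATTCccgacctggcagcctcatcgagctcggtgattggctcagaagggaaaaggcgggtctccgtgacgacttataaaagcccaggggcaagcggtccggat
HSPA1B: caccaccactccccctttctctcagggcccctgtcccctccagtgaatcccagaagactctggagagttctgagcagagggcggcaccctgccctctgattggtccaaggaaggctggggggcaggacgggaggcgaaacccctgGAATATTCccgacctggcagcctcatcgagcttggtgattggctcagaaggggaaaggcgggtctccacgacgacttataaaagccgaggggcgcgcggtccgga
HSPB1: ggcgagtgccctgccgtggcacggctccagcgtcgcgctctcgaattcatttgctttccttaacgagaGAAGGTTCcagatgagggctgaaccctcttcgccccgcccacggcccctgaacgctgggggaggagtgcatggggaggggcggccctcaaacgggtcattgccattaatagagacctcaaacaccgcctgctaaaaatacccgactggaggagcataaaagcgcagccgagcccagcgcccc
HSPA8: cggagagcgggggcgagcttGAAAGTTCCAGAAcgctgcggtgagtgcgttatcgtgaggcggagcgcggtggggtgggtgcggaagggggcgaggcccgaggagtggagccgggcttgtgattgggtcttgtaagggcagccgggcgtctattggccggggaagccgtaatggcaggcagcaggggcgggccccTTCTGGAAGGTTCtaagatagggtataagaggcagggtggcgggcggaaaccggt

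HSPA6, HSPA1A, HSPA1B and HSPB1 were higher in Ars libraries by at least 2-fold and hold 3, 1, 1 and 1 such pairs. HSPA8, the heat shock cognate that cells make without stress, holds 4 pairs and was not past 2-fold in either direction. Of the 24 heat shock genes kept that the promoter table holds, 10 had at least 1 pair between 250 bases before and 50 bases after the start, 5 of the 6 that were higher and 5 of the 18 that were not past 2-fold. The pair occurred in 13.7% of all 27305 promoters of the table and 9.92% of those of the genes kept. The complete element of 3 units, GAA and TTC in turn with any 2 bases between units, occurred in 6 of the 24, 2 among the 6 higher and 4 among the 18 others, against 0.487% of all promoters and 0.406% of those of the genes kept. The shorter pair was searched after the complete element had been found in few of these genes. A match is a description of the letters and not a binding site.

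MT1X and MT2A, metallothionein genes at chr16:56682220-56682469 and chr16:56608334-56608583 on the plus strand, are shown with TGCGCNC on either strand in capitals. TGCGCNC is a form of the core of the metal response element. EGR1, a zinc finger transcription factor at chr5:138465229-138465478 on the plus strand, is shown with its CArG boxes, the site of serum response factor, in capitals.
MT1X: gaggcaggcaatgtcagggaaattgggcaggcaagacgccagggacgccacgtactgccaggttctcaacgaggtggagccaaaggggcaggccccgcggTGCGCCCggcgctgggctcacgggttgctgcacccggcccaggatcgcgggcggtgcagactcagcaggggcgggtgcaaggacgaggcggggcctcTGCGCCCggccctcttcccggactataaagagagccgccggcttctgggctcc
MT2A: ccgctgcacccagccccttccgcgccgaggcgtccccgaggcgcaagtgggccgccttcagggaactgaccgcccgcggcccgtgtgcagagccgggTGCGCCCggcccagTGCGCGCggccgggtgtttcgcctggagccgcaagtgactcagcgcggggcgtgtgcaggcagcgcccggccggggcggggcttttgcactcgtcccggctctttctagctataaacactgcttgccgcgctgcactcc
EGR1: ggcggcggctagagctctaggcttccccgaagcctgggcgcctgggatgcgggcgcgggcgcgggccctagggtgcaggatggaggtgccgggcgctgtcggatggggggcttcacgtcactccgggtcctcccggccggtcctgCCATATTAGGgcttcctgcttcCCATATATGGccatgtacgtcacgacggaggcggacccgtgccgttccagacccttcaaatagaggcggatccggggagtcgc

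Both metallothionein promoters hold 2 copies of TGCGCNC, starting 150 and 53 bases before the start of MT1X and 153 and 139 bases before that of MT2A. Copies of TGCACNC were not counted. TGCGCNC occurred in 20.0% of all promoters in the table and 33.3% of those of the genes kept. The 2 CArG boxes of EGR1 start 105 and 83 bases before its start, and a CArG box occurred in 1.29% of all promoters and 1.16% of those of the genes kept. Promoters matched only 263 of the 343 genes higher and 294 of the 385 genes lower, under 80% of each, so a search over those genes as groups is void and its shares are not given.

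Read depth was similar in the 4 libraries, with 7019842, 5914439 and 5921048 reads recovered in the 3 Ars libraries and 5302037 in the untreated library. Mesenchymal markers, 9 of 9 above 0 in every library, summed to 34468 to 36224 normalized counts in Ars libraries and 18513 in the untreated library. The sum includes COL1A1 and VIM, both higher in Ars libraries, and CD44, with 601 to 712 in Ars libraries and 1335 in the untreated library, and ALPL, with 54.0 to 62.4 in Ars libraries and 121 in the untreated library, went the other way. COL1A2, one of the 9, was at 1.86 to 6.08 normalized counts in Ars libraries and 1.90 in the untreated library. Blood markers, 6 genes, summed to 1.68 to 5.59 in Ars libraries and 3.80 in the untreated library, with HBB at 0 in all 4. Epithelial markers summed to at least 197 in each Ars library and to 91.3 in the untreated library, with KRT20 at 0 in all 4. Most of this gap was in CLDN4, with 105 to 112 in Ars libraries and 15.2 in the untreated library. KRT14 hardly differed, with at least 65.5 in each Ars library and 60.9 in the untreated library. Endothelial markers summed to 18.9 to 28.9 in Ars libraries and 8.56 in the untreated library. Neural markers were lower, at 65.2 to 71.6 in Ars libraries and 107 in the untreated library. RN7SL1, the 7SL RNA of protein secretion, made up 14.1 to 19.9% of reads in Ars libraries and 9.55% in the untreated library. The part of these shifts in the results below was not tested.

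Of the 6132 genes kept, 343 (5.59%) were higher in Ars libraries by at least 2-fold and 385 (6.28%) were lower. All 3 Ars libraries lay above the untreated library for 2441 genes (39.8%) and below it for 2661 (43.4%), and the untreated library lay within their range for 1030 (16.8%). The gap to the untreated library was larger than the whole range of the 3 Ars libraries for 1666 genes above it (27.2%) and 1758 below it (28.7%). Pairs of Ars libraries differed by 2-fold at 4 to 31 of the same genes, whereas each Ars library differed from the untreated library by 2-fold at 757 to 775. The median difference over all genes kept was -0.03. With a test over all 10 libraries that assumes the untreated library to vary like the other groups, 348 genes (5.68%) were higher and 381 (6.21%) lower by edgeR, and 342 (5.58%) and 385 (6.28%) by limma, at an adjusted p under 0.05 and 2-fold. The 5 genes just inside 2-fold reached 1.01 above and -1.01 below at most, and the 5 just outside lay above 0.99 and under 1 in size. A difference of 4-fold or more was reached by 42 genes above (0.685%) and 14 below (0.228%). A gene high in the 3 Ars libraries passes the minimum mean more readily than one equally high in the untreated library alone. HSPA6, at 0.951 in the untreated library, passed it through its Ars libraries. The 4-fold counts in the 2 directions are therefore not set against each other.

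**Figure D1:**
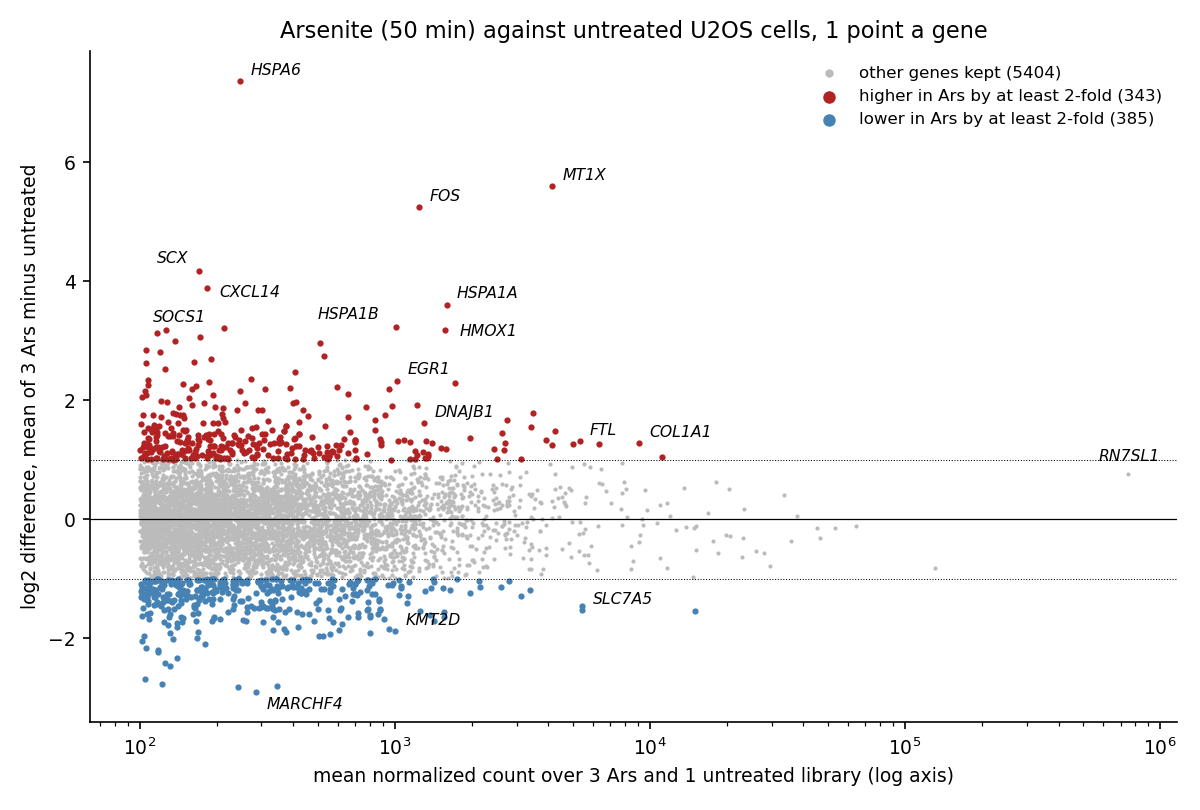
Difference of each of the 6132 genes kept (mean log2 of the 3 Ars libraries minus the untreated library, vertical axis) against its mean normalized count over the 4 libraries (horizontal log axis). Red points mark the 343 genes higher and blue points the 385 genes lower by at least 2-fold (dotted lines). HSPA6 at 7.36, MT1X at 5.60 and FOS at 5.24 stand farthest above 0, and no gene lies below -2.91.

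In the heat shock branch a few genes differed strongly. HSPA6, a stress-inducible HSP70 that unstressed cells hardly make, had 244, 452 and 296 in Ars libraries, against 0.951 in the untreated library, the largest difference of all genes kept at 7.36 ± 0.45. The untreated value is 1 read, so the ratio of 337 has a 95% counting interval of 60.3 to 13311, and the size of this difference is poorly fixed while its direction was shared by every Ars library. HSPA1A, the main inducible HSP70, had 1837, 2304 and 2070.2 in Ars libraries, against 168 in the untreated library, a difference of 3.61 ± 0.16. HSPA1B, its near-identical neighbour on chromosome 6, had 1172, 1524 and 1218 in Ars libraries, against 138 in the untreated library, and reads shared by the pair may have been split or lost in counting. In all 3 genes the groups lay far apart, with every Ars library above the untreated one.

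Among the co-chaperones and small heat shock proteins, DNAJB1, the HSP40 that delivers substrates to HSP70, had 1453, 1829.7 and 1433 in Ars libraries, against 512 in the untreated library, a difference of 1.61 ± 0.20. CRYAB, a small heat shock protein that holds unfolded proteins, averaged 1195 ± 135 in Ars libraries and had 319.5 in the untreated library. HSPB1 (HSP27) had 5588 to 6355 in Ars libraries and 2438 in the untreated library, and SERPINH1, the collagen chaperone HSP47 of the endoplasmic reticulum, averaged 5039 ± 554 in Ars libraries, against 1802 in the untreated library. HSPB1 and SERPINH1 were named after their values were seen. The constitutive chaperones differed little. HSPA8 had 5659, 5232 and 5236 in Ars libraries, against 6058 in the untreated library, HSP90AA1 had 1817, 1415 and 1821 in Ars libraries, against 1964 in the untreated library, and HSPH1, an HSP110 exchange factor, averaged 425 ± 27.8 in Ars libraries and had 341 in the untreated library. BAG3, which couples HSP70 to autophagy, reached a difference of 0.63 ± 0.12 with every Ars library above the untreated one. Over the list of cytosolic heat shock genes, 27 of 31 were kept, 7 were higher by at least 2-fold and 0 lower, against 5.59% and 6.28% of all genes kept, and 18 had all 3 Ars libraries above the untreated library. The list's median difference was 0.34.

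Metal handling showed the second largest difference. MT1X, a cysteine-rich protein that binds zinc, cadmium and arsenic, had 4649, 5842 and 5947 in Ars libraries, against 111 in the untreated library, a difference of 5.60 ± 0.20. MT1E had 4127 to 4402 in Ars libraries and 1229.6 in the untreated library. MT2A had 7480.2, 7442 and 6700.4 in Ars libraries, against 5185 in the untreated library, a difference of 0.47 ± 0.09. Its promoter holds as many copies of TGCGCNC as that of MT1X, but with TGCACNC not counted the promoters cannot be compared for the whole element. SLC30A1, which exports zinc across the plasma membrane, averaged 942 ± 79.6 in Ars libraries, against 254 in the untreated library, whereas SLC39A10, a zinc importer, had 118, 96.9 and 92.2 in Ars libraries, against 207 in the untreated library. Of 14 listed genes of metal handling, 5 were kept, 3 were higher and 1 was lower (60.0% and 20.0%, against 5.59% and 6.28% of all genes kept). The metallothionein genes are close copies of each other, and reads that match several may have been lost or assigned to one.

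The targets of NRF2 differed in both directions. HMOX1, which degrades heme to biliverdin, iron and carbon monoxide, had 1819, 2482 and 1754 in Ars libraries, against 219 in the untreated library, a difference of 3.18 ± 0.28. FTH1, the heavy chain of ferritin that stores iron, averaged 3127 ± 106 in Ars libraries and had 1145 in the untreated library, and FTL, the light chain, had 5768 to 6474 in Ars libraries and 2507 in the untreated library. EPHX1, an epoxide hydrolase of detoxification, averaged 499.6 ± 41.0 in Ars libraries, against 184 in the untreated library. By contrast, TXNRD1, thioredoxin reductase, had 358, 302 and 339.6 in Ars libraries, against 796 in the untreated library, and SLC7A11, the cystine importer that feeds glutathione synthesis, had 81.7, 82.0 and 81.3 in Ars libraries, against 223 in the untreated library, below the untreated library in every case. GCLM, which limits glutathione synthesis, and SRXN1 were under the minimum mean, with 93.8, 88.5 and 62.9 in Ars libraries, against 146 in the untreated library for GCLM and 7.43, 6.52 and 6.71 in Ars libraries, against 10.5 in the untreated library for SRXN1. Of 29 NRF2 targets, 21 were kept, 7 were higher (33.3%, against 5.59% of all genes kept) and 3 lower (14.3%, against 6.28%), and the median difference was 0.50, or 0.84 at a minimum mean of 500. Among 8 kept regulators of NRF2, 0 were higher and 1 was lower (12.5%, against 6.28% of all genes kept). That gene was MAFK, a small MAF partner of NRF2, with 483 ± 69.8 in Ars libraries and 1430.3 in the untreated library.

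Immediate early genes, which are transcribed within minutes of a signal without new protein, differed by gene. FOS, a subunit of the factor AP-1, had 1410.3, 1977 and 1533 in Ars libraries, against 41.8 in the untreated library, a difference of 5.24 ± 0.25. Its untreated value rests on 44 reads, and the ratio of 38.5 has a counting interval of 28.7 to 53.1. FOSB had 147 to 209 in Ars libraries and 20.9 in the untreated library. ATF3, a stress-induced AP-1 partner, averaged 308 ± 73.8 in Ars libraries and had 67.5 in the untreated library. JUN had 1569.6, 1759.8 and 1577 in Ars libraries, against 673 in the untreated library, and JUNB averaged 817 ± 94.8 in Ars libraries and had 331 in the untreated library. The opposite was seen for FOSL1 (FRA-1), an AP-1 subunit of growing cells, which had 284, 301 and 293 in Ars libraries, against 1140.2 in the untreated library, a difference of -1.96 ± 0.04. Over the AP-1 list, 9 of 12 genes were kept, 6 were higher and 1 lower (66.7% and 11.1%, against 5.59% and 6.28% of all genes kept). The median difference was 1.28.

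EGR1, whose promoter is shown above, had 1146, 1467 and 1217 in Ars libraries, against 252 in the untreated library, a difference of 2.33 ± 0.19. SRF, the factor that binds CArG boxes and is itself an immediate early gene, had 397, 416 and 350.5 in Ars libraries, against 1317 in the untreated library. KLF2 had 53.3, 70.8 and 58.7 in Ars libraries, against 340.5 in the untreated library, one of the largest differences below 0 at -2.47 ± 0.20. Some other early genes were not past 2-fold. IER2 had 1102 to 1406 in Ars libraries and 1065 in the untreated library, IER3 averaged 1611 ± 258 in Ars libraries, against 1384 in the untreated library, and DUSP1, the phosphatase that shuts off MAP kinases, had 1025, 1438 and 1166 in Ars libraries, against 744 in the untreated library. Of 33 immediate early genes beyond AP-1, 22 were kept, 2 were higher (9.09%) and 3 lower (13.6%), against 5.59% and 6.28% of all genes kept. MYC, a growth factor response gene, had 277, 279 and 278 in Ars libraries, against 608 in the untreated library, and its 3 Ars libraries differed by less than 2 normalized counts.

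**Figure D2:**
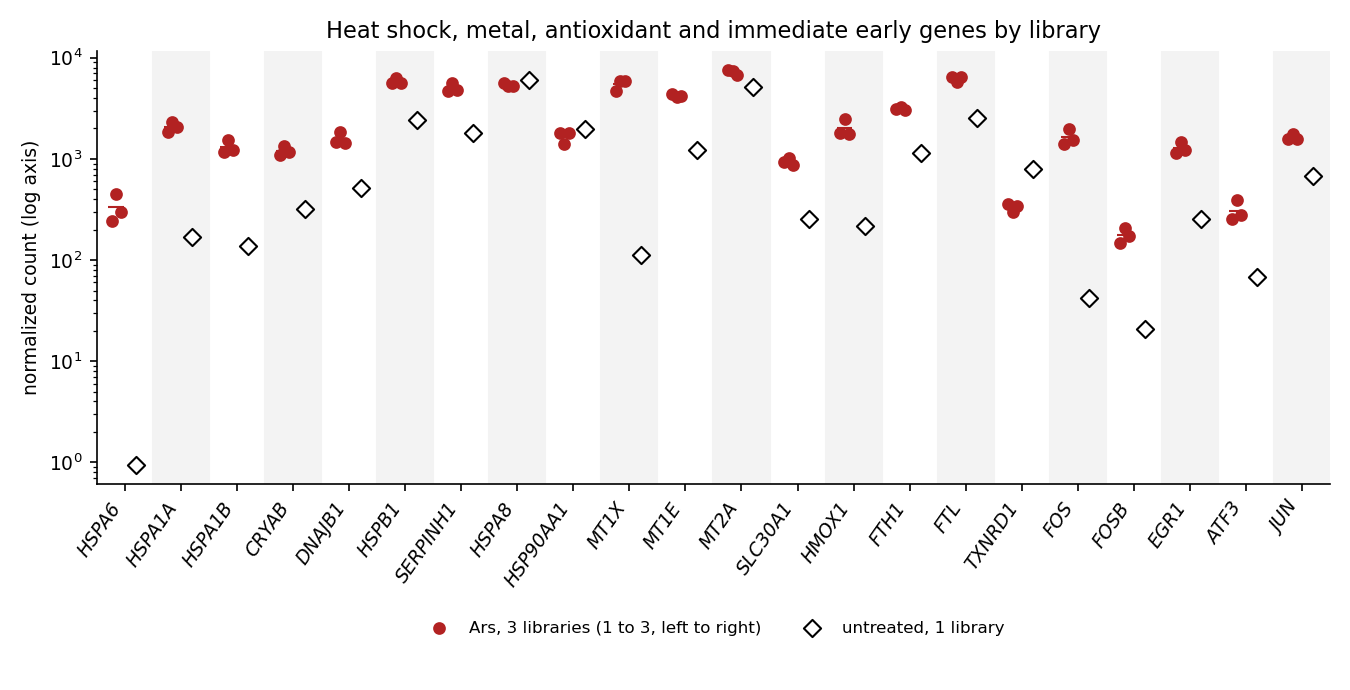
Normalized counts (vertical log axis) of 22 heat shock, metal, antioxidant and immediate early genes, with the 3 Ars libraries as red points (bar at their mean) left of the untreated library (diamond). HSPA6, HSPA1A, MT1X, HMOX1 and FOS are far above the untreated library in all 3 Ars libraries, HSPA8 and HSP90AA1 lie just under it, and TXNRD1 lies below it.

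The integrated stress response, in which phosphorylated eIF2α favours translation of ATF4, had a mixed pattern at the RNA level. ATF4 averaged 1695 ± 52.7 in Ars libraries and had 1626 in the untreated library, within 0.06 ± 0.04 of the untreated library. DDIT4 (REDD1), an inhibitor of mTORC1, had 672, 770.4 and 564 in Ars libraries, against 98.9 in the untreated library, and NUPR1 had 213 to 224 in Ars libraries and 56.1 in the untreated library. PPP1R15A (GADD34), which brings a phosphatase to eIF2α, averaged 698 ± 141 in Ars libraries, against 514 in the untreated library. SLC7A5, the large neutral AA transporter, was lower with 3429.6, 4145 and 3474 in Ars libraries, against 10643 in the untreated library. DDIT3 (CHOP) did not reach the minimum mean, with 56.0, 66.1 and 52.8 in Ars libraries, against 9.51 in the untreated library. Of 26 targets of ATF4 and CHOP, 19 were kept, 2 were higher and 2 lower (10.5% each, against 5.59% and 6.28% of all genes kept). The sign of their median, -0.0007, changed with the scaling. In the unfolded protein response of the endoplasmic reticulum, 19 of 22 genes were kept, 2 were higher (10.5%, against 5.59% of all genes kept) and 0 lower. The 2 were PDIA4, with 325 ± 40.2 in Ars libraries and 134 in the untreated library, and CALR, with 3514 to 3644 and 1769.8. HSPA5 (BiP) averaged 865 ± 39.7 in Ars libraries, against 466 in the untreated library.

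In the p53 and NF-kB lists, 12.5% and 11.1% of the genes kept were past 2-fold, close to the 11.9% of all genes kept. CDKN1A (p21) had 1312, 1461 and 1346 in Ars libraries, against 1371 in the untreated library. MDM2, the ligase that degrades p53, averaged 127 ± 31.0 in Ars libraries and had 248 in the untreated library, a difference of -0.99 ± 0.33, just short of 2-fold. BBC3 (PUMA), which promotes cell death, had 161 to 215 in Ars libraries and 69.4 in the untreated library. Of 16 kept p53 targets, 2 were higher (12.5%) and 0 lower. NFKBIA, the inhibitor of NF-kB, averaged 183 ± 11.8 in Ars libraries, against 261 in the untreated library, and of 9 kept genes of that pathway 0 were higher and 1 was lower, RELB, with 144, 163 and 154 in Ars libraries, against 310.0 in the untreated library. CXCL8 was low in all 4 libraries, with 6.08, 1.86 and 5.87 in Ars libraries, against 16.2 in the untreated library.

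Several of the largest differences were in genes outside these branches. For these, the values of the starved groups, which also received arsenite, are set beside them. What made the groups differ was not tested. SCX, a transcription factor of tendon, had 186, 245 and 239.8 in Ars libraries, against 11.4 in the untreated library, but averaged 24.9 ± 0.845 in EBSS+VBL+Ars and 20.6 ± 3.20 in EBSS+VBL+Gln+Ars libraries. CXCL14, a chemokine, averaged 239 ± 25.9 in Ars libraries and had 15.2 in the untreated library, and averaged 7.91 ± 1.91 and 33.7 ± 4.32 in the same groups. FOXS1, a forkhead factor, had 543, 695 and 724 in Ars libraries, against 82.7 in the untreated library, KCNH2, a potassium channel, had 122 to 182 in Ars libraries and 16.2 in the untreated library, and ACKR3, an atypical chemokine receptor, averaged 135 ± 1.67 in Ars libraries, against 18.1 in the untreated library. FOXS1 averaged 43.0 ± 15.6 in EBSS+VBL+Ars and 37.6 ± 3.90 in EBSS+VBL+Gln+Ars libraries, below the untreated library in both. For each of these 5 genes all 3 Ars libraries lay above all 6 starved libraries and the untreated library. The same was so for 55 of the 266 genes picked for naming. Those genes were picked in part for large differences, and the share over all genes kept was not counted. Lying above the untreated library was fixed by choosing the 5 among the largest differences.

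HSPA6, MT1X, HMOX1 and FOS were above the untreated library in every group that received arsenite, and so was SCX. HSPA6 averaged 436 ± 137 in EBSS+VBL+Ars and 375 ± 125 in EBSS+VBL+Gln+Ars libraries. MT1X averaged 6495 ± 1309 and 5030.4 ± 697, HMOX1 averaged 2052 ± 403 and 1665 ± 315, and FOS averaged 2824 ± 632 and 1628 ± 202, in that order. Not every stress gene did so, since HSPB1 averaged 2017 ± 356 in EBSS+VBL+Ars libraries, against 2438 in the untreated library, and EPHX1 averaged 133 ± 17.8 in EBSS+VBL+Ars libraries, against 184 in the untreated library. The untreated values of 0.951, 111, 219 and 41.8 were below all 9 arsenite libraries for HSPA6, MT1X, HMOX1 and FOS. The same held for 78 of the 266 genes picked for naming, in part for large differences, and was not counted over all genes kept. For Ars libraries it was fixed by choosing HSPA6, MT1X, HMOX1 and FOS among the largest differences, so only the starved libraries could have gone otherwise. PNRC1, a nuclear receptor coactivator, had 209, 238 and 217 in Ars libraries, against 25.7 in the untreated library, and averaged 227 ± 30.8 in EBSS+VBL+Ars libraries, and ABCG1, a cholesterol exporter, averaged 164 ± 14.0 in Ars libraries and had 17.1 in the untreated library, and averaged 164 ± 29.1. SOCS1, a suppressor of cytokine signalling, lay between, with 220.1 to 332 in Ars libraries and 28.5 in the untreated library and 108 ± 22.3 in EBSS+VBL+Ars libraries. All these groups are set beside the same untreated library, so its error is shared.

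Transcripts of some structural proteins were also higher in Ars libraries. COL1A1, the main chain of collagen I, had 9757, 11094 and 10987 in Ars libraries, against 4353 in the untreated library, COL3A1 averaged 242 ± 21.7 in Ars libraries, against 64.7 in the untreated library, and SPARC, a matrix protein of bone, had 5218, 4568 and 4701 in Ars libraries, against 2039.9 in the untreated library. THBS1, a matrix protein and a target of YAP, was lower with 2565 ± 135 in Ars libraries and 5883 in the untreated library. Of 22 kept genes of collagen and matrix, 6 were higher and 1 lower (27.3% and 4.55%, against 5.59% and 6.28% of all genes kept). TUBA1A, an alpha-tubulin, had 1235, 1167 and 1151 in Ars libraries, against 259 in the untreated library, while TUBA1C, another, had 3367 to 3848 in Ars libraries and 4986 in the untreated library. Tubulin genes are similar in sequence and share reads. DBP, an output gene of the circadian clock, averaged 485 ± 78.4 in Ars libraries, against 104 in the untreated library, and CLOCK had 119 to 126 in Ars libraries and 251 in the untreated library. The tubulin and clock lists were written after the data were seen. Of 12 and 10 genes kept, 2 were higher in each (16.7% and 20.0%, against 5.59% of all genes kept), with 0 and 1 lower.

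Broad, small shifts were seen in lists of housekeeping genes. Of 78 cytosolic ribosomal protein genes kept, 68 had all 3 Ars libraries above the untreated library, against 39.8% of all genes kept. Yet only 3 were higher by at least 2-fold and 1 lower (3.85% and 1.28%, against 5.59% and 6.28% of all genes kept). The median was 0.49, and 0.24 with the trend in transcript length taken out. RPS20 had 1525, 1391 and 1565 in Ars libraries, against 686 in the untreated library. Among 22 kept genes of oxidative phosphorylation, 19 had all 3 Ars libraries above (against 39.8% of all genes kept) and 0 had all below (against 43.4%). Their median was 0.52, or 0.28 at a minimum mean of 500 and 0.29 with the length trend taken out. NDUFA4 averaged 383 ± 66.2 in Ars libraries and had 184 in the untreated library. Mitochondrial ribosomal protein genes, 51 kept, had a median of 0.09. In autophagy and lysosome genes, 22 kept, 4 were higher (18.2%, against 5.59% of all genes kept) and 0 lower, among them CTSL, a lysosomal protease, with 263, 218 and 254 in Ars libraries, against 78.9 in the untreated library, and GABARAPL1, an ATG8 protein, with 123 to 153 in Ars libraries and 62.8 in the untreated library. The 2 mitochondrial rRNAs were both higher, MT-RNR2 with 1760.0, 2254 and 2969.9 in Ars libraries, against 885 in the untreated library, after a depletion of rRNA that can differ between libraries. DNA replication genes, 25 kept, had 0 past 2-fold in either direction, against 11.9% of all genes kept.

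**Figure D3:**
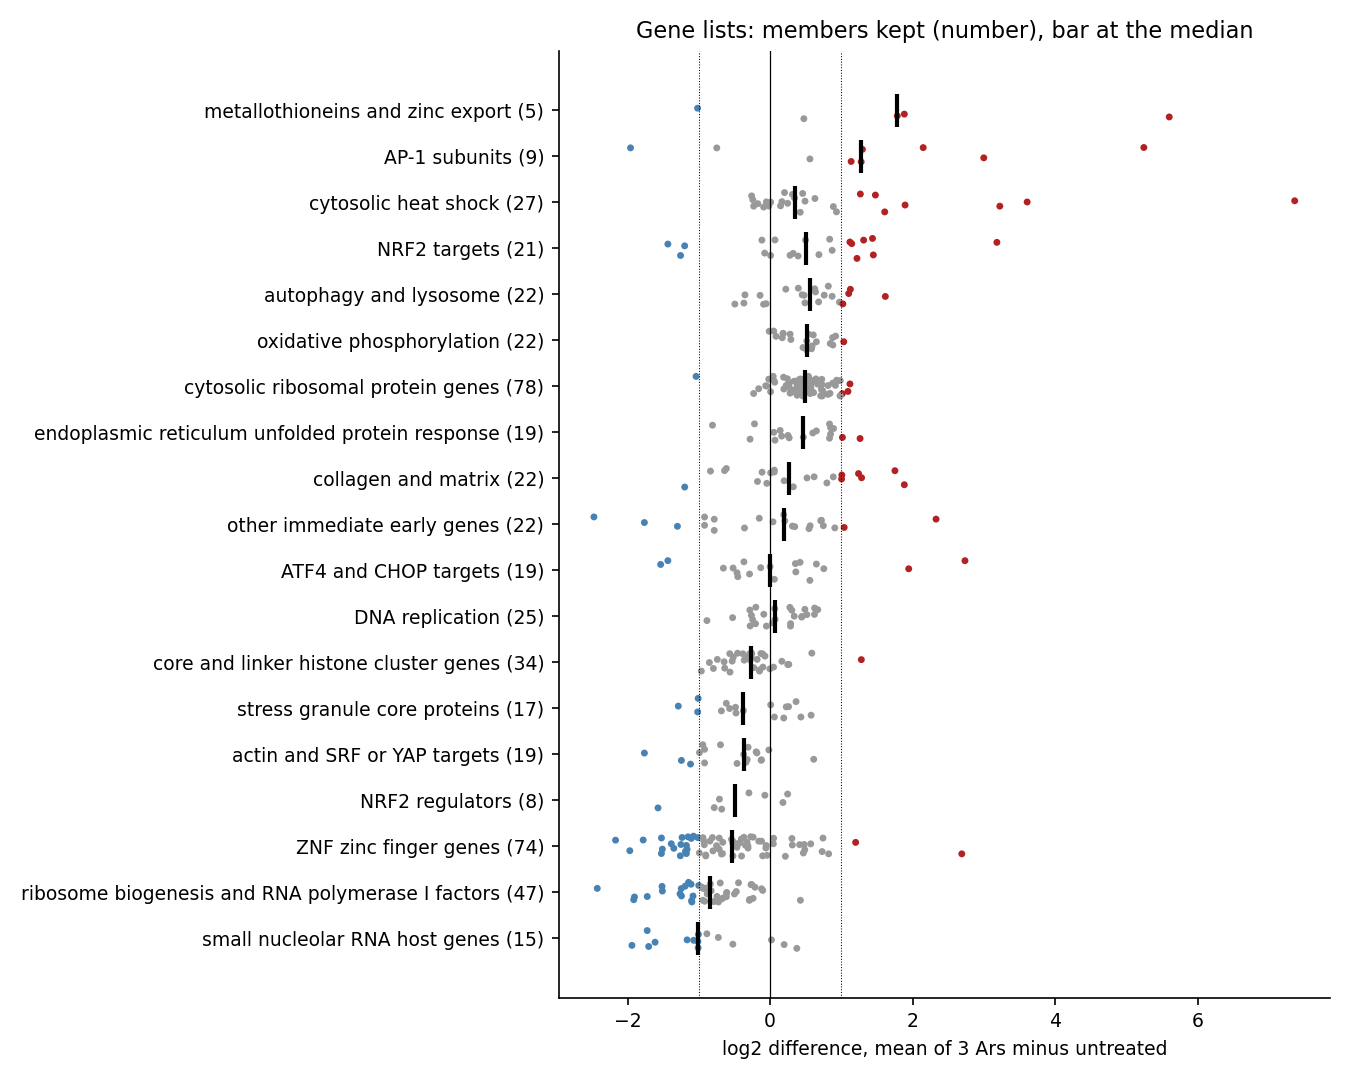
Difference of every kept member of 19 gene lists (horizontal axis, mean log2 of 3 Ars libraries minus the untreated library; the number kept stands in parentheses), with a bar at each list's median. Red and blue points lie at or past 2-fold (dotted lines). Metallothionein and AP-1 genes have medians of 1.78 and 1.28, and host genes of snoRNAs and ribosome biogenesis genes have medians of -1.01 and -0.84.

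Among the genes lower in Ars libraries, MARCHF4, a membrane ubiquitin ligase, had 117, 104 and 104 in Ars libraries, against 819 in the untreated library, the farthest below 0 of all genes kept at -2.91 ± 0.10. KRT34, a hair keratin, had 46.6, 36.3 and 48.6 in Ars libraries, against 286 in the untreated library, and VGLL3, a cofactor of TEAD factors, had 70.2, 59.6 and 78.8 in Ars libraries, against 351 in the untreated library. SYNE1, which links the nucleus to the cytoskeleton, averaged 76.4 ± 3.98 in Ars libraries, against 312 in the untreated library, and NAV3, a microtubule-binding protein, had 66.8, 49.4 and 54.5 in Ars libraries, against 238 in the untreated library. ITPRIP, which binds the inositol trisphosphate receptor, averaged 96.1 ± 6.85 in Ars libraries and had 385 in the untreated library, and KLHL21, an adaptor of a ubiquitin ligase in mitosis, had 79.7 to 126 in Ars libraries and 420.3 in the untreated library. All 3 Ars libraries lay below the untreated library in each of these genes, as the rule that chose them required. The same was so for 43.4% of all genes kept. PLEC, the cytoskeletal linker plectin, had 9140.3, 11191 and 10085 in Ars libraries, against 29556 in the untreated library, and was named after its values were seen.

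The annotation leaves some of the largest differences uncertain, since 20 of the 30 genes with the 15 largest differences each way overlap another gene, 13 of them one on the other strand, and the strand setting of the counting is not given in the sources used here. AC109326.1, a gene on chromosome 17 that the annotation holds as yet to be tested by experiment and that overlaps LINC00910, had 138, 127 and 148 in Ars libraries, against 967 in the untreated library. AC007952.4, a long noncoding RNA on chromosome 17, overlaps SNORD3D, a gene of the U3 snoRNA, and had 39.2, 68.9 and 42.8 in Ars libraries, against 339 in the untreated library. CD3EAP overlaps ERCC1 on the other strand, and CSKMT, a mitochondrial methyltransferase with 61.4 ± 2.72 in Ars libraries, against 285 in the untreated library, overlaps LBHD1. FOSB, among the higher genes, also overlaps ERCC1, and SCX overlaps BOP1.

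Factors of ribosome synthesis were lower as a list, which was written after the data were seen. Of 47 genes kept, 44 had all 3 Ars libraries below the untreated library, against 43.4% of all genes kept, 16 were lower by at least 2-fold and 0 higher, with a median of -0.84. CD3EAP, a subunit of RNA polymerase I, had 65.5, 51.2 and 62.9 in Ars libraries, against 324 in the untreated library, a difference of -2.43 ± 0.19. DDX21, a nucleolar helicase, had 259.9, 183 and 225 in Ars libraries, against 826 in the untreated library. URB1 and URB2, factors of the large ribosomal subunit in yeast, had 202, 217 and 162 in Ars libraries, against 637 in the untreated library for URB1 and 91.8, 96.9 and 90.6 in Ars libraries, against 268 in the untreated library for URB2. PPRC1, a coactivator related to PGC-1 that the list also holds, averaged 475 ± 45.5 in Ars libraries and had 1787 in the untreated library. POLR1D, a subunit shared by RNA polymerases I and III, was the exception with all 3 Ars libraries above, at a difference of 0.42.

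Host genes of snoRNAs, whose introns release the small RNAs that guide rRNA modification, were lower too. Of 15 kept of 29, 9 were lower by at least 2-fold (60.0%, against 6.28% of all genes kept) and 0 higher, and the median was -1.01. SNHG12 had 286, 376 and 314 in Ars libraries, against 1243 in the untreated library, SNHG25 had 85.7, 120.2 and 74.6 in Ars libraries, against 305 in the untreated library, SNHG32 had 151 to 183 in Ars libraries and 527 in the untreated library, and SNHG17 averaged 531 ± 130.4 in Ars libraries, against 1597 in the untreated library. SNHG29 went the other way at a difference of 0.37. Among snoRNAs listed as genes, a group added after the data were seen, SNORD3B-1 and SNORD3B-2, copies of U3 that share reads, had 120.2, 183 and 147 in Ars libraries, against 437 in the untreated library for the first and 171, 255 and 244 in Ars libraries, against 796 in the untreated library for the second. Of 34 snoRNAs and scaRNAs kept, 1 was higher and 3 lower (2.94% and 8.82%, against 5.59% and 6.28% of all genes kept).

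SNAPc is the complex that starts transcription of small nuclear RNAs, and 3 of its 5 genes were kept, from a list added after the data were seen. SNAPC1 had 75.6, 43.8 and 65.4 in Ars libraries, against 285 in the untreated library, SNAPC4 had 99.9, 104 and 94.7 in Ars libraries, against 376 in the untreated library, and SNAPC2 averaged 291 ± 2.81 in Ars libraries and had 395 in the untreated library, a smaller difference of -0.44 ± 0.01. The small nuclear RNA RNU6ATAC was high in 1 library, with 778, 2245 and 875 in Ars libraries, against 459 in the untreated library. Of 5 kept transcripts of RNA polymerase III, RN7SL1 had 706891, 1096290.0 and 699594 in Ars libraries, against 481630.0 in the untreated library, and RN7SL3 had 93578, 111140.0 and 127363 in Ars libraries, against 194347 in the untreated library, in opposite directions. These are near-identical copies that share reads, and the part of read assignment in these values was not tested.

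**Figure D4:**
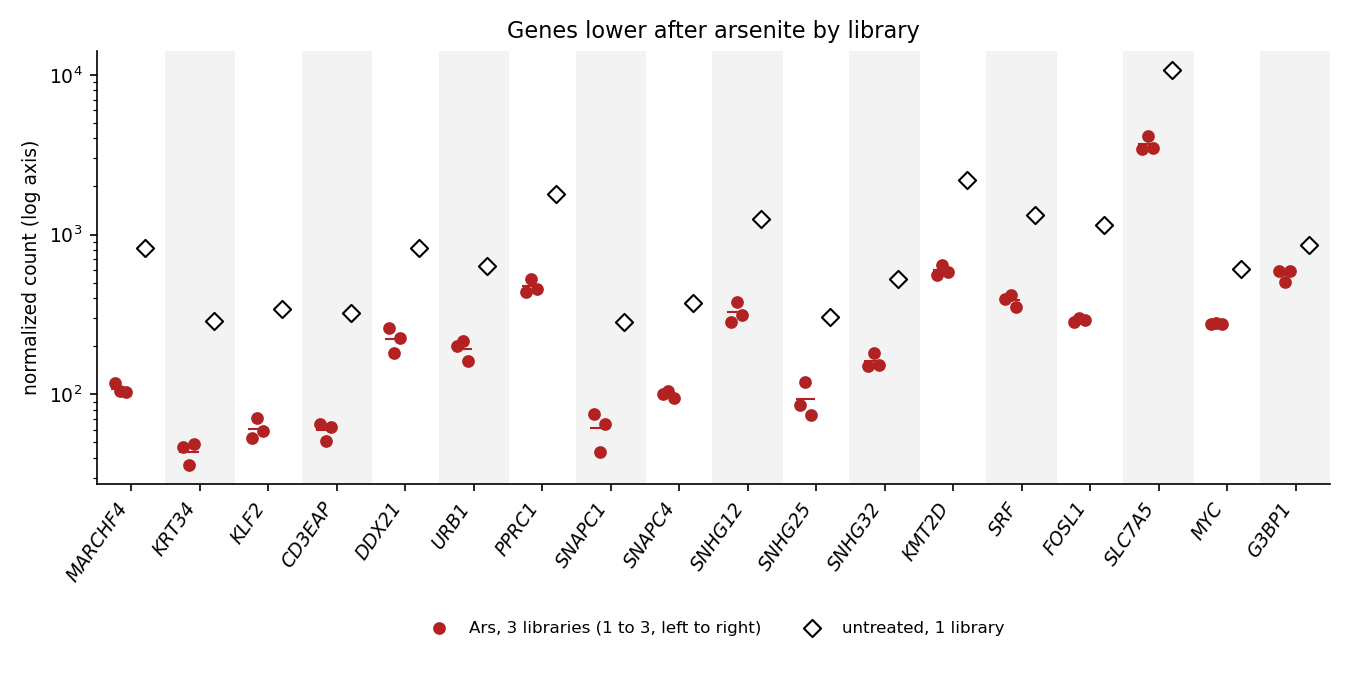
Normalized counts (vertical log axis) of 18 genes with lower values after arsenite, with the 3 Ars libraries as red points (bar at their mean) left of the untreated library (diamond). The untreated library lies above all 3 Ars libraries in each gene, with differences from -2.91 for MARCHF4 to -0.62 for G3BP1 on the log2 scale.

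Among zinc finger and chromatin genes, more were lower than higher. Of 74 ZNF zinc finger genes kept, 20 were lower by at least 2-fold (27.0%, against 6.28% of all genes kept) and 2 higher (2.70%, against 5.59%). Their median was -0.53, or -0.91 at a minimum mean of 500 and -0.32 with no minimum. ZNF316 had 261 to 334 in Ars libraries and 1181 in the untreated library, and ZNF467, the farthest in the other direction, had 196, 282 and 246 in Ars libraries, against 36.1 in the untreated library, and averaged 17.5 ± 7.25 in EBSS+VBL+Ars libraries. KMT2D, a histone H3 lysine 4 methyltransferase, had 562, 644 and 587 in Ars libraries, against 2203 in the untreated library, and KMT2B, another, averaged 526 ± 75.4 in Ars libraries, against 1162 in the untreated library. Of 20 kept chromatin regulators with very large proteins, a list added after the data were seen, 5 were lower and 0 higher. These are 25% and 0%, against 6.28% and 5.59% of all genes kept. The count of lower genes was 1 once the trend with transcript length was taken out. CDK6, a kinase of G1, had 326, 301 and 291 in Ars libraries, against 927 in the untreated library, and HES1, a repressor in the Notch pathway, was higher with 207 ± 8.05 in Ars libraries and 32.3 in the untreated library.

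Of the genes whose products assemble SGs, 17 of 20 were kept, 3 were lower by at least 2-fold (17.6%, against 6.28% of all genes kept) and 0 higher. All 3 Ars libraries lay above the untreated library for 6 of the 17 and below it for 9, against 39.8% and 43.4% of all genes kept. The median of -0.37 was not stable, at 0.0077 with a minimum mean of 10 or 50 and 0.06 with one of 500. G3BP1, the scaffold of SGs, had 587, 505 and 591 in Ars libraries, against 858 in the untreated library, and G3BP2 had 171 to 224 in Ars libraries and 262 in the untreated library. NUFIP2, PRRC2C and FXR2, RNA-binding proteins of SGs, were the lower ones, with 129 ± 13.6 in Ars libraries, against 315 in the untreated library for NUFIP2, 390.2, 294 and 361 in Ars libraries, against 702 in the untreated library for PRRC2C and 255, 276 and 259.9 in Ars libraries, against 532 in the untreated library for FXR2. With the trend in transcript length taken out, 1 of these was past 2-fold. Of 12 kept genes of P-bodies and decapping, 0 were past 2-fold, against 11.9% of all genes kept. DDX6 had 243, 246 and 203 in Ars libraries, against 431 in the untreated library. In translation initiation, 2 of 19 kept genes were lower (10.5%, against 6.28% of all genes kept). EIF4G1, the scaffold of the cap-binding complex, had 1997 ± 125 in Ars libraries and 4414 in the untreated library. EIF5B had 116 to 167 in Ars libraries and 309 in the untreated library. The amount of a mRNA in these libraries says nothing of where in the cell its protein was.

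Among transporters, SLC1A5, the main Gln importer, had 2799, 3377 and 2884 in Ars libraries, against 4316 in the untreated library, a difference of -0.52 ± 0.15, and averaged 7904 ± 753 in EBSS+VBL+Ars and 4938 ± 341 in EBSS+VBL+Gln+Ars libraries. SLC38A2 averaged 789 ± 40.0 in Ars libraries, against 535 in the untreated library. Of 5 kept genes of Gln transport, 1 was lower (20.0%, against 6.28% of all genes kept), SLC7A5, described above. SLC2A1, the glucose transporter of most cells, had 959, 999.6 and 937 in Ars libraries, against 649.5 in the untreated library, and SLC2A3 averaged 139 ± 15.2 in Ars libraries and had 49.5 in the untreated library. TXNIP and ARRDC4, brakes on glucose uptake, were under the minimum mean. HK2, a hexokinase, had 82.2 to 94.5 in Ars libraries and 265 in the untreated library. Of 17 kept genes of glycolysis, 2 were lower (11.8%, against 6.28% of all genes kept) and 0 higher.

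Targets of actin signalling, SRF and YAP mostly lay below the untreated library. Of 19 kept, 17 had all 3 Ars libraries below the untreated library, against 43.4% of all genes kept. By at least 2-fold, 3 were lower (15.8%, against 6.28% of all genes kept), and the median was -0.37. ANKRD1, a target of YAP, had 234, 152 and 257 in Ars libraries, against 497 in the untreated library, AMOTL2, another, averaged 615 ± 41.2 in Ars libraries, against 1332 in the untreated library, and TAGLN, an actin-binding protein, had 1299.6, 1250.2 and 1348 in Ars libraries, against 2583 in the untreated library. Core and linker histone genes, 34 kept, had a median of -0.26, or -0.66 with the trend in transcript length taken out. Without that removal, 1 was higher (2.94%, against 5.59% of all genes kept) and 0 lower (against 6.28%). H1-1, a linker histone, was that gene with 2751, 3263 and 3469 in Ars libraries, against 1295 in the untreated library. Histone mRNAs are short, and 6 were lower once the trend with transcript length was taken out.

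Genes past 2-fold in the 2 directions differed in length. The median transcript was 2521 bases for the 343 genes higher, 5164 for the 384 annotated genes lower and 3236 for all 6130 annotated genes kept. Median gene lengths were 18820, 37644 and 28185 bases for the same groups. Single-exon genes made up 6.41% of those higher, 4.17% of those lower and 3.92% of all kept, and the median GC content was 54.1, 54.0 and 53.1%. Noncoding genes of the lncRNA class numbered 6 among those higher, 18 among those lower and 85 among all kept.

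Across the 6130 genes, the difference had a Spearman rho of -0.32 and a Pearson r of -0.28 with the log10 of transcript length, given as a description, since all genes share the same 4 libraries. The median difference was 0.30 in the decile of genes with the shortest transcripts (median 767 bases) and -0.41 in the decile with the longest (median 9514 bases). Each Ars library taken alone gave medians of 0.31 to 0.33 and -0.44 to -0.39 in those deciles. Between pairs of Ars libraries the same rho was -0.02 to 0.08 and the r was 0.02 to 0.16. With GC content the rho was -0.01 for the mean and -0.11 to 0.11 for single Ars libraries. A trend with length that is shared by all Ars libraries cannot be told apart from a feature of the one untreated library.

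**Figure D5:**
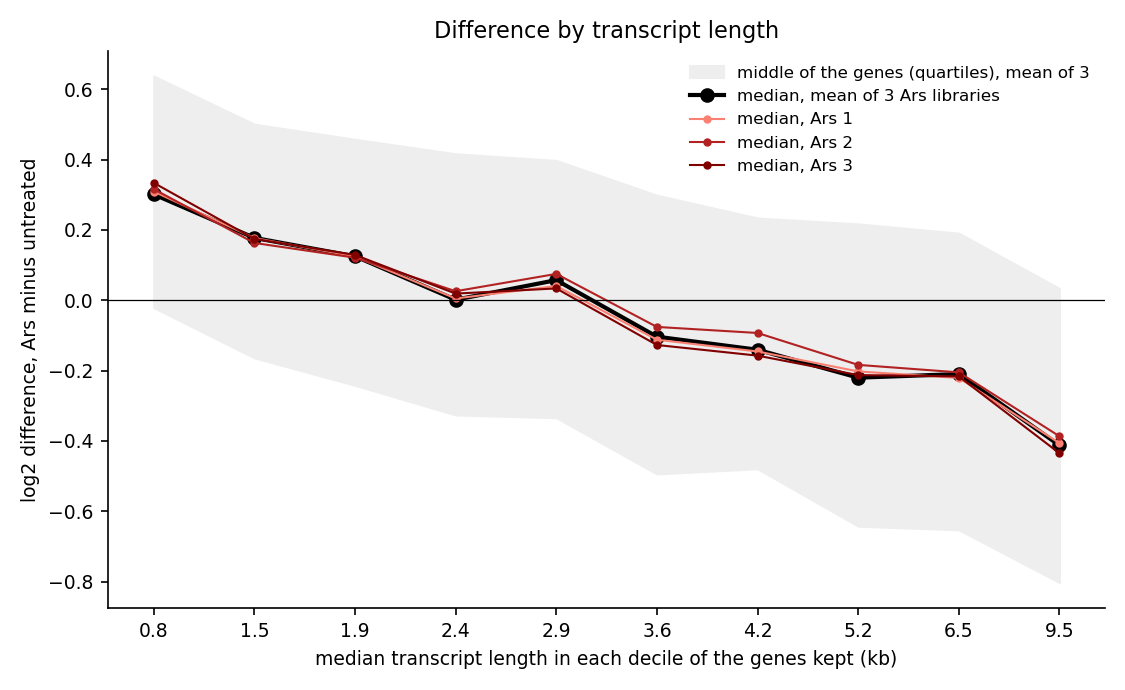
Median difference (vertical axis, log2, Ars minus untreated) in deciles of the 6130 annotated genes ordered by transcript length (horizontal axis, median length of each decile in kb), for the mean of the 3 Ars libraries (black, with the quartiles of the genes shaded) and for each Ars library (red lines). All 4 lines slope down together, with the mean at 0.30 in the decile with the shortest transcripts and at -0.41 in the decile with the longest.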

How the data were processed

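RNA was depleted of ribosomal RNA and sequenced as single reads. According to the study's methods, reads were aligned to hg38 with STAR, counted per gene with HTSeq and normalized with DESeq2. Tool versions, annotation release and strand setting are not given in the sources used here. As deposited by the authors, signal values are normalized counts, each gene's count divided by its library's size factor, with no pooling. In every library 100% of values were whole multiples of 1 step within 0.01 reads, and dividing by that step recovered 5914439 to 7019842 reads in Ars libraries and 5302037 in the untreated library. All 10 value columns were mapped to samples.

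The description used log2(normalized count + 1) and a minimum mean of 100 over the 4 libraries, with no test. Counts with a test served as alternatives: edgeR 4.0.16 on recovered reads and limma 3.58.1 on log2 values, over all 10 libraries, with the untreated library assumed to vary like the other groups. At an adjusted p under 0.05 and 2-fold, edgeR called 348 genes higher and 381 lower, and limma 342 and 385.

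Counting intervals are exact 95% binomial ones and cover counting error only. Gene IDs were matched to GENCODE release 44 on the same hg38 build (60401 of 60671, and 6130 of the 6132 kept) and promoters to RefSeq by symbol (4931 of the 6132). The members and lists were chosen with earlier results of these data known, and 5 named lists and the snoRNA group were added after the data were seen. Genes named were the 15 largest differences each way, the 5 kept members of each list that differed most, and a fixed set of stress genes. Exceptions are marked, and some genes under this rule are not reported here. R 4.3.3, Python 3.11.15, numpy 2.4.6, pandas 2.3.3, scipy 1.17.1 and matplotlib 3.10.9 were used.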

Additional observations from a re-analysis of the deposited data

How the results depend on the processing

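No paired analysis was possible because the untreated library has no replicate number and no partner. With 1 untreated library the comparison has no error for that condition, and a gene near the minimum mean of 100 rests on about as many reads, with a larger counting error than abundant genes. The numbers of genes higher and lower were 343 and 385. A lower minimum gave more of both, 1114 and 951 at a mean of 10, 527 higher at a mean of 50, and 2663 and 2313 with no minimum, while a minimum of 500 gave 82 and 96, with 1627 genes kept. A fold of 1.5 gave 929 and 1134. The median difference of all genes kept, -0.03, was 0.0066 at a minimum of 10, 0.16 with no minimum, 0.0564 with equal totals after leaving out transcripts of RNA polymerase III, -0.0573 with median-of-ratios factors of the 4 libraries and 0.0157 after quantile normalization. Leaving out each Ars library in turn gave 335 to 350 genes higher, 372 to 407 lower and medians of -0.0346 to -0.0118. The share of genes higher among all called was 47.1%, and 57.9% with equal totals without RNA polymerase III transcripts. None of the genes past 2-fold changed sign under any of these settings. Each Ars library alone, chosen after seeing the data, gave 328, 389 and 344 genes higher and 429, 386 and 426 lower, with medians of -0.0388, -0.0112 and -0.0195. Removing the trend with transcript length, also chosen after seeing the data, gave 317 and 306, of which 269 and 255 were among the genes counted before, and turned the median of mitochondrial ribosomal protein genes to -0.13, of tubulins to -0.00 and of glycolysis genes to -0.05, against 0.09, 0.13 and 0.09.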
